A study of Mus musculus with 32 samples.

Results

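The genes described here encode local mediators through which UV-exposed skin restrains immune responses. They were chosen by symbol and number 9 of the 55401 gene identifiers counted: Hal, Tslp, Cd274, Tnfsf11, Il10, Arg1, Nt5e, Entpd1 and Lgals9. Epidermis was separated from the back skin of 32 hairless mice of a mixed SKH-1, SV129 and BL6/J background, aged 10 to 14 weeks, and poly(A) RNA was sequenced from each mouse. The 8 groups of 4 mice were defined by sex, by genotype and by exposure. The wild-type mice (WT) carried the normal gene for the nuclear receptor PPARβ/δ, and their littermates labelled Ppard-/- (KO) were deficient for it. UV mice received 120 mJ/cm2 on the back, a dose below the one that reddens skin, and were sampled 24 h later, whereas Control mice were handled in the same way without UV. Hairlessness and the mixed background were shared by all groups. The comparisons address how UV changed each mediator in each genotype, whether the response differed between genotypes and between sexes, and what the other genes of each pathway did.

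UV light suppresses cutaneous immunity through several routes that begin in keratinocytes and in resident or infiltrating leukocytes. Trans-urocanic acid, made from histidine by histidase, collects in the cornified layer and is converted by UV to its cis form, which is suppressive. Keratinocytes also release cytokines such as TSLP and RANKL that act on Langerhans cells and regulatory T cells, and they can display PD-L1, which restrains T cells through PD-1. On leukocytes, the enzymes CD39 and CD73 turn extracellular ATP into adenosine, a suppressive metabolite, while arginase 1 depletes arginine and galectin-9 and IL-10 act on T cells and antigen-presenting cells.

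Between 22919428 and 40653581 reads per mouse fell on genes (median 27600228). The sex markers matched the label in 32 of 32 mice, and the 48 pairs of mice within a group differed by more than sampling noise (chi-square per degree of freedom 19.5 to 134). Counts of Ppard averaged 95.5 cpm (CPM, counts scaled to TMM-adjusted totals of reads on genes) ± 6.08 (SD, n = 8) in WT Control mice and 79.8 ± 6.87 in KO Control mice, and 282 ± 24.7 and 210 ± 25.7 after UV. The KO-to-WT difference in Ppard was -0.26 on the log2 scale without UV (edgeR adjusted p = 0.156) and -0.42 after UV (adjusted p = 0.00114). These counts sum all exons, so they do not check a deletion of part of the gene, and the mice are called KO by their label. The suprabasal keratin genes Krt1 and Krt10 had at least 1547 and 2301 cpm in every mouse. Of 11 monocyte and macrophage markers, 8 rose with UV in WT and 10 in KO, whereas 8 and 6 of 8 Langerhans cell markers fell. All 4 endothelial markers rose in WT and 3 of 4 in KO. Of 5 tested neutrophil markers, 2 rose in WT, and 4 rose and 1 fell in KO, while Elane had no read in any mouse. These marker counts stand beside UV calls for 71% of all tested genes in WT and 70.8% in KO. The female KO UV mouse 54F stood apart: its 6 fibroblast markers summed to 1982 cpm against 6.0 to 9.48 cpm in the other mice of its group, and its 11 macrophage markers to 1543 cpm against 157 to 287. Values that rest on this mouse are therefore also given without it. The sum of 4 skeletal muscle markers also varied, from 0.509 cpm in a WT UV male to 2368 cpm in a KO Control female. Its median was 783 cpm in WT and 1202 cpm in KO Control females, against 122 and 33.4 cpm in Control males. The part of muscle RNA in the values below was not tested. In bulk RNA, fewer cells of a type and less RNA per cell cannot be told apart.

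By GENCODE M21 (GRCm38), Hal (ENSMUSG00000020017) lies at chr10:93488768-93519304, Cd274 (ENSMUSG00000016496) at chr19:29367455-29388095, Tnfsf11 (ENSMUSG00000022015) at chr14:78277445-78308043 and Il10 (ENSMUSG00000016529) at chr1:131019845-131024974. Arg1 (ENSMUSG00000019987) lies at chr10:24915221-24927484, Nt5e (ENSMUSG00000032420) at chr9:88327197-88372092, Entpd1 (ENSMUSG00000048120) at chr19:40612366-40741602 and Lgals9 (ENSMUSG00000001123) at chr11:78962974-78984946. Tslp has the identifier ENSMUSG00000024379. Every count is over all exons of a gene. Start regions from RefSeq (GRCm38.p6) were read for 6 of the 9 genes, and none is given for Il10, Arg1 or Tslp. Those of Hal, Cd274 and Tnfsf11 are shown because these genes changed without any overlap between UV and Control mice in both genotypes, 1 of them downwards and 2 upwards. Each window runs from 250 bases before to 50 after the start, 5′ to 3′ on the strand of the gene (plus for Hal at chr10:93488518-93488817 and Cd274 at chr19:29367188-29367487, minus for Tnfsf11 at chr14:78307994-78308293). Capitals mark matches, on either strand, to the 8 motifs searched.
Hal: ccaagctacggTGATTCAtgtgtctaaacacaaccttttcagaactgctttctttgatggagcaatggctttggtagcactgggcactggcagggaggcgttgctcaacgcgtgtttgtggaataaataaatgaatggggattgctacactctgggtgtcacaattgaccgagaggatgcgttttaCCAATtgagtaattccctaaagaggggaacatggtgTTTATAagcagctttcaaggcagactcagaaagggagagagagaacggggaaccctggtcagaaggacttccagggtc
Cd274: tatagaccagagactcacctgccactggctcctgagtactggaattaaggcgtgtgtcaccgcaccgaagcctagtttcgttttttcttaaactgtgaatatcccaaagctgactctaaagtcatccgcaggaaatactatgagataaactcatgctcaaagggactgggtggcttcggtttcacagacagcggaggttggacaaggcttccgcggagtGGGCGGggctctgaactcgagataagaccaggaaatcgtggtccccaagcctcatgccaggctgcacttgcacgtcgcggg
Tnfsf11: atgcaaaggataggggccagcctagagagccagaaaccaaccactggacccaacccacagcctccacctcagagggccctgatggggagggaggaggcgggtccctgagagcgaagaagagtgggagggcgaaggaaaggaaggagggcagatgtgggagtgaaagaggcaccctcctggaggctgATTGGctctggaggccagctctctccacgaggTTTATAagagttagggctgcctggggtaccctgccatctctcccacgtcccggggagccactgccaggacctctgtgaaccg

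The AP-1 site was searched as TGANTCA and the STAT site as TTCCNGGAA. For the TATA element the letters searched were TATAAA, and for the GC box GGGCGG. The CCAAT box was searched by its own letters, and an NF-kB site, an interferon-stimulated element and the direct repeat bound by PPAR dimers by their consensus forms. The Hal window held an AP-1 match at bases 12 to 18, a CCAAT box at bases 187 to 191 and a TATA box read on the other strand at bases 223 to 228. Tnfsf11 had a TATA box on the other strand at bases 219 to 224 and the CCAAT box read on the other strand at bases 187 to 191. Cd274 held 1 GC box at bases 220 to 225 and none of the other 7 motifs. Among all 32851 RefSeq windows of this length, 7.81% held the AP-1 motif, 13.6% the TATA box, 37.4% the CCAAT box and 35.7% the GC box. The interferon-stimulated motif, found in 3.44% of all windows, occurred at 2 places in that of Lgals9. The PPAR repeat was in 0.0396% of all windows and in none of those found for the mediators. These matches describe letters and not bound sites.

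The levels of the mediators spanned several orders of magnitude. Per kilobase of exon, Hal was highest in Control epidermis at 255 ± 66.3 cpm per kb (SD, n = 16). Lgals9 (4.51 ± 1.63), Arg1 (4.16 ± 3.22), Cd274 (3.14 ± 0.590), Tslp (2.22 ± 0.782) and Nt5e (1.63 ± 0.959) followed, and each overlapped the next in its range over mice. Entpd1 (0.198 ± 0.114), Il10 (0.0562 ± 0.0605) and Tnfsf11 (0.0375 ± 0.0350) were lower, and the range of Entpd1 lay below that of Nt5e. After UV, Hal was still highest at 63.8 ± 16.9 cpm per kb and Tslp was now second at 15.1 ± 5.82. Cd274 (6.34 ± 0.825), Lgals9 (4.01 ± 3.66), Arg1 (3.71 ± 2.05), Nt5e (0.942 ± 0.414), Entpd1 (0.909 ± 1.08), Tnfsf11 (0.367 ± 0.120) and Il10 (0.238 ± 0.146) followed, and only the range of Hal was clear of its neighbour.

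A gene was tested if any mouse reached 1 cpm. The test was edgeR's quasi-likelihood method, with p values adjusted by the Benjamini-Hochberg procedure over 15546 genes and called at 0.05. In WT mice, 4 mediators rose with UV (Tslp, Cd274, Tnfsf11 and Entpd1), 3 fell (Hal, Nt5e and Lgals9) and Arg1 was not called, where UV called 71% of all genes (34.5% higher and 36.5% lower). In KO mice the same 4 rose, Hal fell, and Arg1, Nt5e and Lgals9 were not called, where 70.8% of all genes were called (37.3% higher and 33.5% lower). These shares make a UV response of a gene the common outcome, so the directions and sizes carry the description. The counts of each list below are to be read beside these shares. Il10 was below the 1 cpm minimum and was compared by an exact permutation test. Of the tested genes named below, Tnfsf11, Pdcd1 and Hdc passed the minimum through UV mice alone, and Amdhd1, Ctla4 and Tnfrsf11b through Control mice alone, so they entered the test through the side where they were high. The lists counted below also hold Tnfrsf14, Enpp1, Enpp3, Ceacam1, Ptger2 and Cd200r1, which passed through UV mice alone. They further hold Vtcn1 and Ppara, which passed through Control mice alone. The median change of the 8 tested mediators was 0.44 in WT and 0.59 in KO on the log2 scale, beside -0.01 and 0.09 for all genes. These medians include Tnfsf11, which entered through UV mice alone, so they are not read as a shift of the set. UV and Control mice did not overlap in WT for 4 of the 9 (Hal, Tslp, Cd274 and Tnfsf11), where 43.4% of tested genes did not overlap. In KO the same 4 did not overlap, where 35.1% of tested genes did not. The share of genes without overlap in both genotypes was not counted, and Tnfsf11 was among those that entered through UV mice alone.

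**Figure D1:**
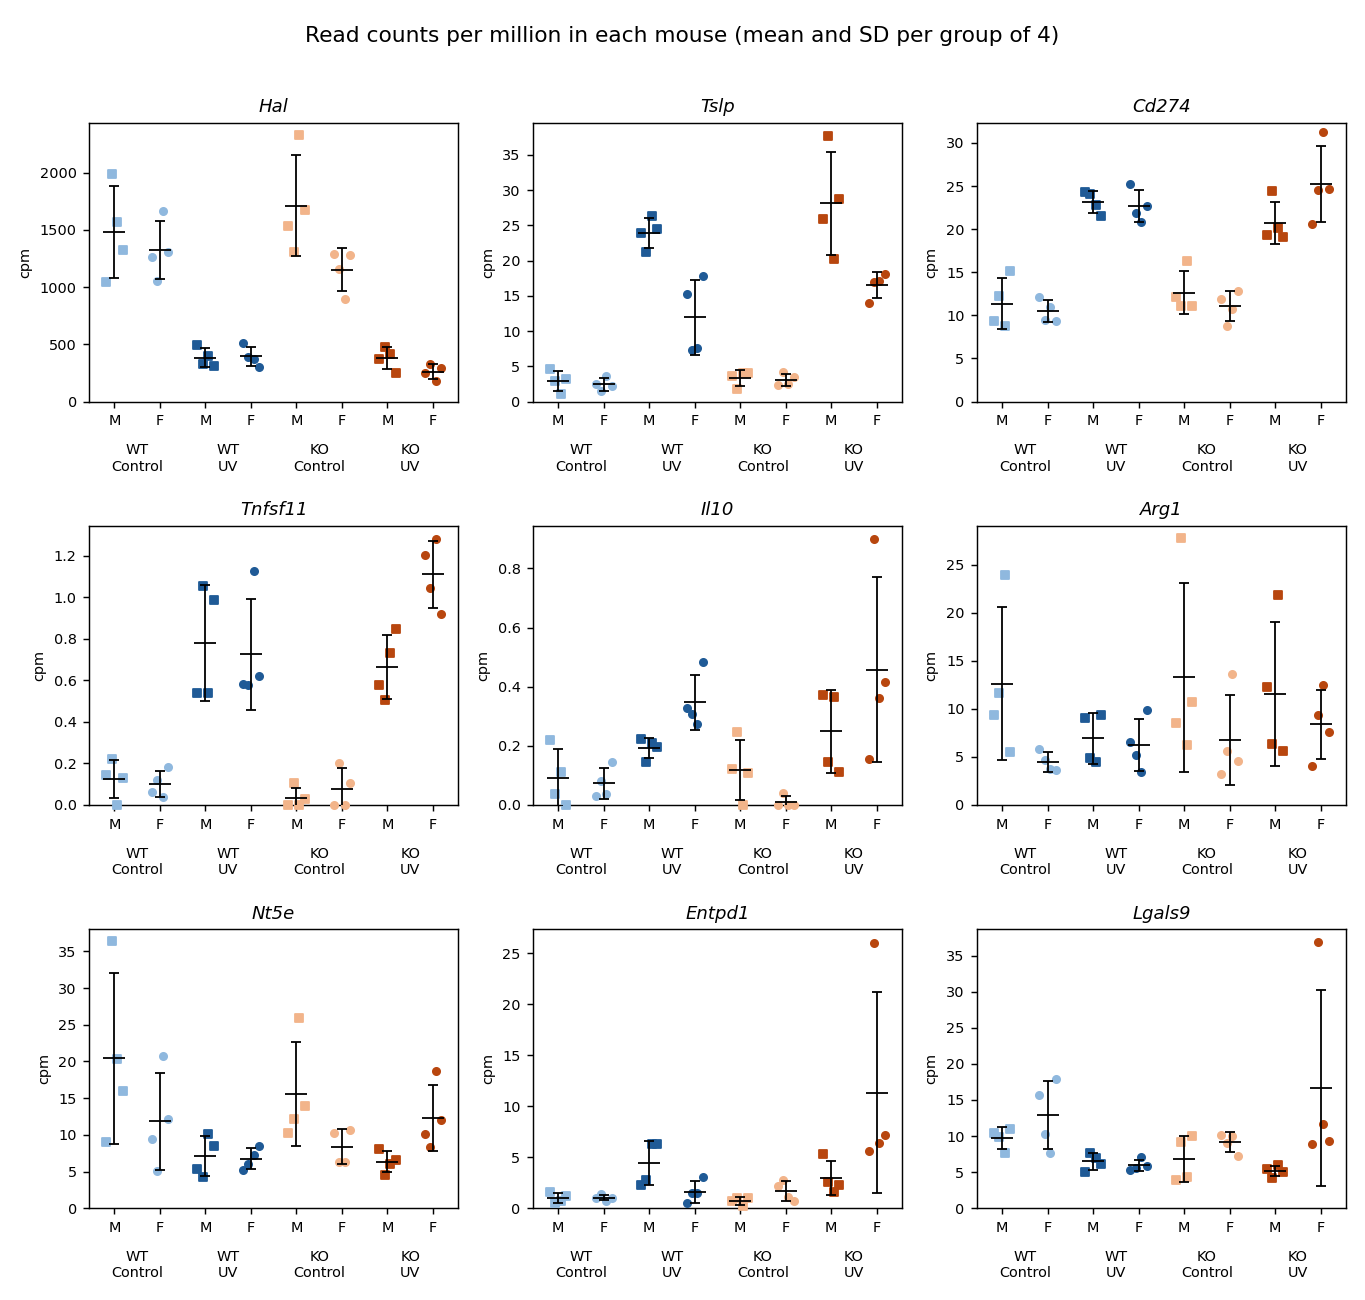
Levels in cpm (CPM, linear axes from 0) of the 9 mediators in each of 32 mice, by genotype, exposure and sex (M squares, F circles), with the mean and SD of each group of 4; SD bars that would pass 0 end there. Hal fell and Tslp, Cd274 and Tnfsf11 rose without overlap in both genotypes, and mouse 54F is the high point of Entpd1 (26.1 cpm) and Lgals9 (36.9 cpm) in KO UV females.

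Hal, which encodes histidase, the enzyme that makes trans-urocanic acid, lost most of its transcript. In WT Control mice it ranged from 1043 to 1990 cpm (median 1317), and after UV from 302 to 509 cpm (median 382). KO Control mice ranged from 893 to 2330 cpm (median 1297) and KO UV mice from 175 to 480 cpm (median 308). Every UV mouse was thus below every Control mouse. The fall was 3.60-fold in WT (95% interval 2.84 to 4.57, edgeR adjusted p = 9.76e-11) and 4.47-fold in KO (3.52 to 5.69, adjusted p = 5.77e-12). Group means fell 3.87-fold in WT males, 3.36-fold in WT females, 4.51-fold in KO males and 4.44-fold in KO females. Over all states the female-to-male difference in Hal was -0.31 on the log2 scale (interval -0.55 to -0.08). It was not called by edgeR (adjusted p = 0.0543), where 19.1% of all genes were. It was called with DESeq2 (-0.32, adjusted p = 0.0278) and by edgeR for 9 of the 32 mice left out in turn.

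Genes that supply or use histidine moved in both directions. Of 9 listed genes, 6 were tested, and in each genotype 2 of them rose and 4 fell (median log2 change -1.25 in WT and -1.56 in KO). Filaggrin, Flg, whose breakdown releases histidine in the cornified layer, went from 2494 ± 503 cpm to 778 ± 223 cpm in WT (mean ± SD, n = 8) and from 2560 ± 289 to 665 ± 314 cpm in KO. Its log2 change was -1.67 in WT and -2.0 in KO (edgeR adjusted p = 5.67e-09 and 2.21e-10). Flg2, a filaggrin relative, fell by 4.64 and 4.88 on the log2 scale, and Casp14, a protease of filaggrin breakdown, fell by 0.84 and 1.11. Blmh, a hydrolase that completes this breakdown, rose by 0.46 and 0.41. Uroc1, which encodes urocanase, was below the minimum in these samples, and Amdhd1, the next enzyme of histidine breakdown, fell by 3.75 and 4.06. Hdc, which directs histidine to histamine instead, rose by 3.57 in WT and 4.85 in KO (adjusted p = 1.48e-10 and 1.75e-12). Suprabasal markers fell alongside, with Krt10 at -2.17 and -2.33 and Lor at -2.38 and -2.54, and their part in the fall of Hal was not tested.

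Tslp, a keratinocyte cytokine that acts on dendritic cells, T cells and innate lymphocytes, rose in every group. WT Control mice had 1.01 to 4.56 cpm (median 2.73), and WT UV mice 7.28 to 26.3 cpm (median 19.5). KO Control mice had 1.77 to 4.12 cpm (median 3.52) and KO UV mice 13.9 to 37.7 cpm (median 19.1). The lowest UV mouse was above the highest Control mouse in each genotype. The rise was 6.31-fold in WT (95% interval 4.40 to 9.04, edgeR adjusted p = 2.86e-10) and 6.69-fold in KO (4.67 to 9.59, adjusted p = 1.63e-10).

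After UV, Tslp values ran lower in females than in males in both genotypes. WT UV males had 23.8, 21.2, 26.3 and 24.4 cpm, and WT UV females 15.2, 7.28, 7.58 and 17.7 cpm. KO UV males had 25.9, 37.7, 20.2 and 28.7 cpm, and KO UV females 13.9, 16.9, 17.1 and 18.1 cpm. Over all states the female-to-male difference in Tslp was -0.54 on the log2 scale (95% interval -0.88 to -0.19, edgeR adjusted p = 0.0284), a comparison in which 19.1% of all genes were called, and without WT female 59F its adjusted p was 0.0514. The response to UV itself was not called as different between sexes, with differences of -0.74 in WT (interval -1.72 to 0.25, adjusted p = 1) and -0.66 in KO (-1.64 to 0.33, adjusted p = 0.735).

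Other genes of the TSLP axis moved in both directions. Of 8 tested, 2 rose and 3 fell in WT, and 3 rose and 4 fell in KO. Crlf2, the receptor chain specific to TSLP, went from 1.56 ± 0.635 to 3.73 ± 1.28 cpm in WT (mean ± SD, n = 8, log2 change 1.29, edgeR adjusted p = 6.59e-05) and from 1.36 ± 0.530 to 6.0 ± 1.79 cpm in KO (2.16, adjusted p = 3.43e-08). Il7r, the shared chain, rose in KO (1.25, adjusted p = 4.78e-05), while its WT value was 0.11 (adjusted p = 0.705). The difference between these Il7r responses was 1.14 (adjusted p = 0.0867). The alarmin Il33 rose by 1.27 and 1.30, and F2rl1, a protease receptor upstream of TSLP in keratinocytes, fell by 2.32 and 2.04.

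Cd274, which encodes the checkpoint ligand PD-L1, rose with a narrow spread between mice. WT Control mice had 8.75 to 15.1 cpm (median 10.2) and WT UV mice 20.9 to 25.2 cpm (median 22.7). KO Control mice had 8.82 to 16.3 cpm (median 11.5) and KO UV mice 19.1 to 31.2 cpm (median 22.5). No UV mouse reached down to the Control range. The rise was 2.10-fold in WT (95% interval 1.79 to 2.46, edgeR adjusted p = 2.03e-09) and 1.94-fold in KO (1.65 to 2.27, adjusted p = 1.69e-08), and the interval of the log2 difference between genotypes was -0.44 to 0.21. Group means rose 2.04-fold in WT males, 2.16-fold in WT females, 1.64-fold in KO males and 2.28-fold in KO females.

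Pdcd1, the gene for its receptor PD-1, was at 0.194 ± 0.175 cpm in WT Control mice and at 2.23 ± 0.584 cpm after UV (mean ± SD, n = 8). In KO mice it went from 0.125 ± 0.117 to 2.96 ± 1.30 cpm. These changes were 11.5-fold (95% interval 5.78 to 22.8, edgeR adjusted p = 2.28e-07) and 23.1-fold (11.1 to 48, adjusted p = 8.55e-09), and their size rests on Control mice with 0 to 14 reads. The other ligand of PD-1, Pdcd1lg2, was below the minimum. Of 11 tested genes of the PD-1 and B7 family, 4 rose and 4 fell in WT, and 6 rose and 2 fell in KO (6 and 3 without mouse 54F). The costimulatory ligands Cd80 and Icosl rose by 4.07 and 2.27 on the log2 scale in WT and by 4.26 and 2.39 in KO. The inhibitory receptor gene Ctla4 fell by 5.37 and 3.88, and Vsir, which encodes the checkpoint protein VISTA, fell by 2.80 and 1.13 (by 1.76 in KO without 54F). T cell markers fell alongside (7 of 10 in WT and 6 of 10 in KO, 5 without 54F), and the part of T cell number in these values was not tested. Cd276, another B7 family gene named after its values were seen, fell in WT (-0.49) and rose in KO (0.30), and its response differed between genotypes (0.79, adjusted p = 0.0147, and 0.0199 without 54F).

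**Figure D2:**
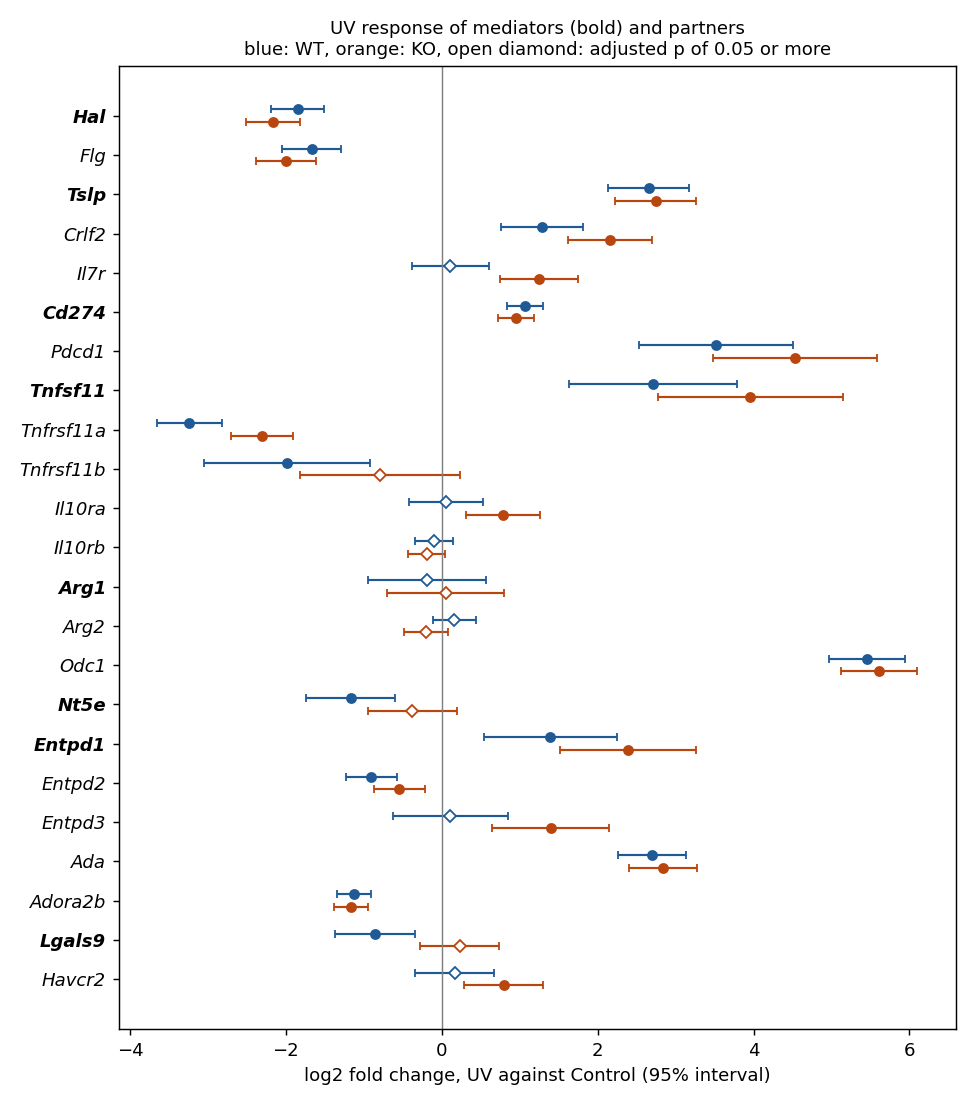
Log2 fold change of UV against Control with 95% intervals for the 8 tested mediators (bold) and 15 tested partners, in WT (blue) and KO (orange) mice; filled circles passed an adjusted p of 0.05 and open diamonds did not. Tnfsf11 and its receptor Tnfrsf11a moved in opposite directions (2.71 and -3.24 in WT), and Odc1 had the largest rise shown (5.46 and 5.61).

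Tnfsf11 encodes RANKL, a TNF family ligand that acts on Langerhans cells through the receptor RANK. It was near the detection limit without UV, at 2, 3, 1 and 5 reads in WT females, 4, 6, 0 and 4 in WT males, 0, 5, 0 and 3 in KO females and 0, 3, 0 and 1 in KO males. After UV it had 16, 15, 33 and 18 reads in WT females, 17, 29, 18 and 35 in WT males, 31, 36, 39 and 22 in KO females and 14, 14, 22 and 23 in KO males. All UV mice were above all Control mice. The level went from 0.112 ± 0.0745 to 0.753 ± 0.255 cpm in WT (mean ± SD, n = 8), a 6.55-fold rise (95% interval 3.09 to 13.9, edgeR adjusted p = 4.39e-05). In KO it went from 0.0554 ± 0.0760 to 0.889 ± 0.279 cpm, a fitted 15.6-fold rise (6.84 to 35.5, adjusted p = 6.94e-07) whose size depends on Control mice of which 4 of 8 had no read. A count of 3 corresponded to 0.0803 to 0.132 cpm across libraries, a detection limit that covers counting error only.

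The receptor gene went the other way. Tnfrsf11a, which encodes RANK, fell from 15.8 ± 2.76 to 1.68 ± 0.511 cpm in WT (mean ± SD, n = 8, 9.43-fold, edgeR adjusted p = 6.61e-14) and from 15.2 ± 2.19 to 3.43 ± 2.13 cpm in KO (4.94-fold, adjusted p = 3.09e-11). After UV it was higher in KO than in WT by 0.87 on the log2 scale (adjusted p = 0.0161, and 0.74 with adjusted p = 0.0465 without 54F), where 3.31% of all genes were called, and the difference between the UV responses was 0.93 (adjusted p = 0.0823). The decoy receptor gene Tnfrsf11b fell in WT (-1.99, adjusted p = 0.00119, but -1.59 with adjusted p = 0.104 in females alone) and was not called in KO (-0.79, adjusted p = 0.158, and -1.13 with adjusted p = 0.0466 without 54F). Of 6 tested genes of this axis, 1 rose and 3 fell in WT and 1 rose and 2 fell in KO (3 fell without 54F). Cd40 rose by 0.88 and 1.09, and Lgr4, a further RANKL receptor, fell by 2.13 and 1.65. Langerhans markers such as Cd207 (-1.70 and -1.38) fell with Tnfrsf11a, and their part was not tested.

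**Figure D3:**
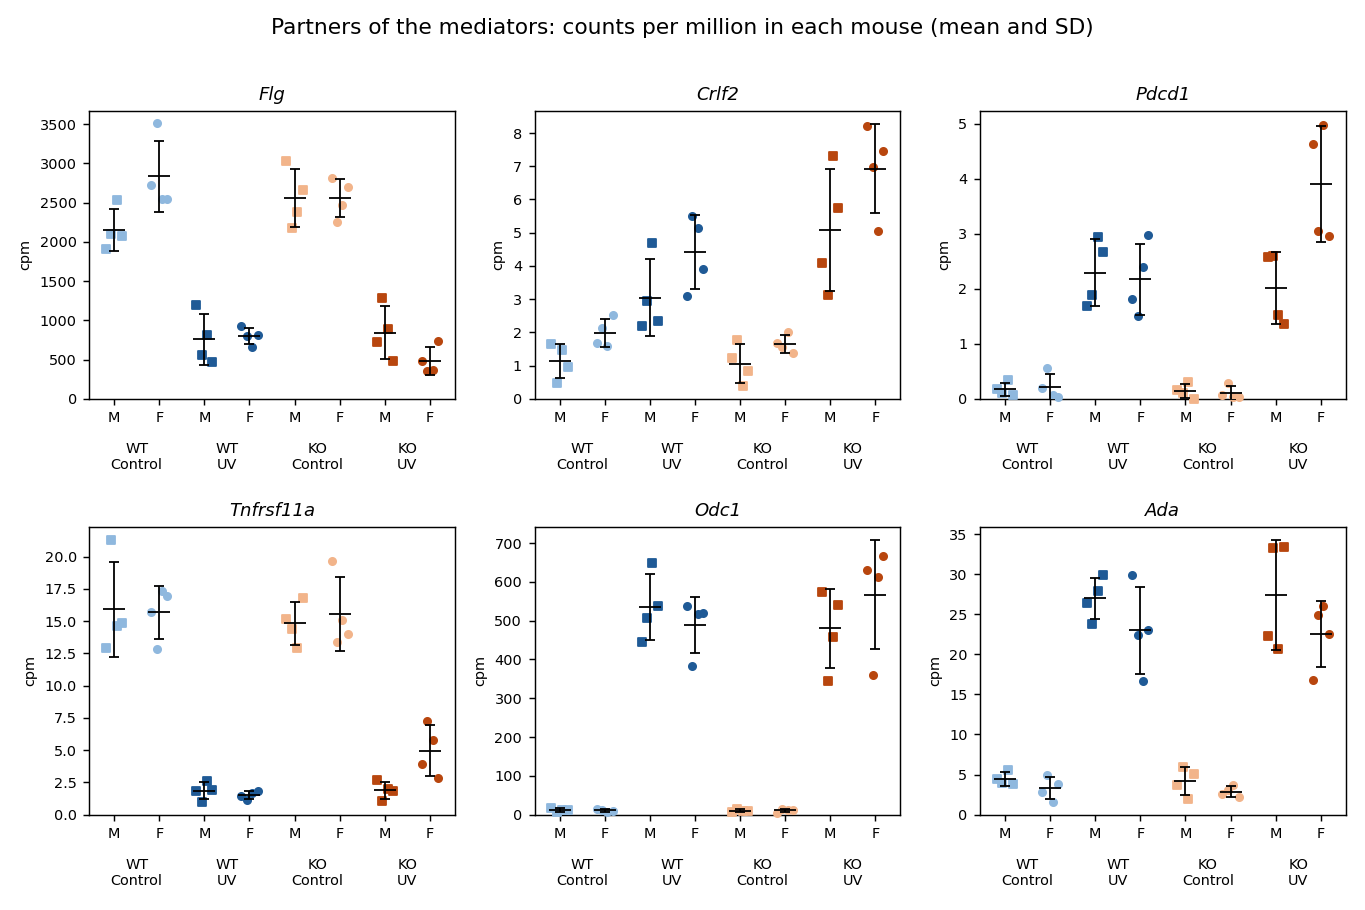
Levels in cpm (linear axes from 0) in each mouse of 6 partner genes: the histidine source Flg, the receptors Crlf2, Pdcd1 and Tnfrsf11a, and the enzymes Odc1 and Ada, with the mean and SD of each group of 4. Flg and Tnfrsf11a fell with UV, and the other 4 rose.

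Il10, the classic suppressive cytokine of UV-exposed skin, was counted in few reads. WT Control mice had 18 reads in all (0 to 6 a mouse) and WT UV mice 64 (4 to 14 a mouse). KO Control mice had 15 reads (0 to 7 a mouse) and KO UV mice 83 (3 to 31 a mouse). The level went from 0.0828 ± 0.0728 to 0.271 ± 0.105 cpm in WT (mean ± SD, n = 8, two-sided exact permutation test p = 0.00109) and from 0.0645 ± 0.0892 to 0.353 ± 0.252 cpm in KO (exact p = 0.00218). The ranges overlapped in both genotypes. Mouse 54F held 31 of the 83 reads, and without it the KO difference was 0.211 cpm in place of 0.289 cpm (exact p = 0.00389). Without a minimum on low counts, edgeR gave log2 changes of 1.63 in WT (adjusted p = 0.019) and 3.01 in KO (adjusted p = 0.000214).

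The receptor chains of IL-10 were also followed. Il10ra was at 4.72 and 4.90 cpm in WT Control and UV mice (log2 change 0.05, edgeR adjusted p = 0.847) and rose from 4.25 to 8.32 cpm in KO (0.78, adjusted p = 0.00376, but 0.17 with adjusted p = 0.662 in males alone). Without 54F the KO rise of Il10ra was 0.53 (edgeR adjusted p = 0.0197). The difference between the WT and KO responses was 0.73 (adjusted p = 0.216), and 0.44 without 54F (adjusted p = 0.401). Il10rb was not called in either genotype (-0.10 and -0.19), although without 54F its KO value was -0.30 (adjusted p = 0.00954). Of 8 tested genes of the axis, 3 rose and 2 fell in WT, and 4 rose and 2 fell in KO (4 and 2, and 4 and 3, without 54F). Socs3, a feedback inhibitor of STAT3 signalling, rose by 2.14 and 1.72, and Bcl3, an NF-kB regulator, by 1.76 and 1.24. The kinase genes Jak1 and Tyk2 fell by 0.62 and 0.52 in WT and by 0.76 and 0.46 in KO.

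Lgals9 encodes galectin-9, a lectin that binds TIM-3 and other T cell receptors. In WT Control mice it ranged from 7.62 to 17.9 cpm (median 10.4) and in WT UV mice from 5.07 to 7.71 cpm (median 6.01). The ranges overlapped only through WT UV male 38M (7.708 cpm), which was above WT Control male 56M (7.62 cpm) and WT Control female 71F (7.706 cpm). The fall was 1.81-fold (95% interval 1.27 to 2.58, edgeR adjusted p = 0.00333). In KO mice, Control values were 3.96 to 10.2 cpm (median 9.10) and UV values 4.22 to 36.9 cpm (median 7.42). The KO change was 0.23 on the log2 scale (interval -0.28 to 0.74, adjusted p = 0.42) and became -0.13 (adjusted p = 0.549) without 54F, which had 36.9 cpm against 8.86 to 11.7 cpm in the other KO UV females.

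Of all mediators, Lgals9 had the smallest p for a difference of UV response between genotypes, at 1.08 on the log2 scale (95% interval 0.36 to 1.8, edgeR adjusted p = 0.108), and 0.68 without 54F (adjusted p = 0.159). Over all states it was higher in females by 0.60 (interval 0.24 to 0.96, adjusted p = 0.0194, and 0.42 with adjusted p = 0.0299 without 54F). Havcr2, the gene for TIM-3, rose in KO (0.79, adjusted p = 0.00548, but 0.51 with adjusted p = 0.194 in males alone) and was not called in WT (0.16, adjusted p = 0.565), a difference of 0.63 (adjusted p = 0.318). Of the 9 tested genes of galectins and TIM-3, 3 rose and 3 fell in WT and 6 rose and 3 fell in KO (5 and 2 of the 8 tested without 54F). Lgals3, an abundant epidermal galectin gene, fell by 1.45 and 1.52, and Cd44, a galectin-9 binding partner, rose by 1.12 and 1.11.

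Arg1, the gene for the cytosolic arginase that breaks down arginine, was not called in either genotype and varied widely among mice. WT Control mice had 3.58 to 23.9 cpm (median 5.68) and WT UV mice 3.45 to 9.84 cpm (median 5.87). KO Control mice had 3.24 to 27.7 cpm (median 7.34) and KO UV mice 4.00 to 21.8 cpm (median 8.49). UV and Control mice overlapped throughout. The log2 change was -0.19 in WT (95% interval -0.94 to 0.57, edgeR adjusted p = 0.664) and 0.05 in KO (-0.70 to 0.80, adjusted p = 0.911). Changes inside these intervals were not excluded. Its highest values were in males (23.9 cpm in WT Control 56M, 27.7 in KO Control 44M and 21.8 in KO UV 61M). Over all states it was lower in females by 0.77 on the log2 scale (interval of the difference -1.30 to -0.23, adjusted p = 0.0391), but this call was lost for 13 of the 32 mice left out in turn, males and females (adjusted p 0.0506 to 0.082), with limma-trend (0.0557) and without a minimum (0.0567).

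Of the tested arginine and polyamine genes, Odc1 had the largest change in both genotypes. Odc1, the first enzyme of polyamine synthesis, which uses the ornithine made by arginase, went from 11.6 ± 3.66 to 511 ± 77.1 cpm in WT (mean ± SD, n = 8, 44-fold, 95% interval 31.4 to 61.7, edgeR adjusted p = 3.91e-17). In KO it went from 10.7 ± 3.42 to 523 ± 122 cpm (48.9-fold, 34.8 to 68.7, adjusted p = 3.32e-17). Of 12 tested genes, 8 rose and 2 fell in WT, and 8 rose and none fell in KO (median log2 changes 0.63 and 0.65), counts to be read beside the 71% and 70.8% of all genes that UV called. The arginine maker Ass1 rose by 2.10 and 2.65, Asl, the next enzyme, by 0.68 and 0.60, and the polyamine catabolic gene Sat1 by 1.30 and 1.47. The mitochondrial arginase gene Arg2 was not called (0.16 and -0.20), and Nos2, whose product competes for arginine, was below the minimum. Oat, which uses ornithine in another way, fell in WT (-0.65) and was at -0.03 in KO, a difference of 0.62 (adjusted p = 0.0385, and 0.0681 without 54F).

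Of the adenosine-producing enzymes, Entpd1 rose in both genotypes, whereas Nt5e fell in WT and was not called in KO. Entpd1, the gene for CD39, which takes ATP and ADP to AMP, ranged from 0.479 to 1.57 cpm in WT Control mice (median 1.02) and from 0.473 to 6.32 cpm in WT UV mice (median 2.54). In KO it ranged from 0.176 to 2.74 cpm (median 0.978) and from 1.56 to 26.1 cpm after UV (median 5.49). The ranges overlapped in both genotypes. The rise was 2.63-fold in WT (95% interval 1.45 to 4.77, edgeR adjusted p = 0.00396) and 5.23-fold in KO (2.85 to 9.58, adjusted p = 1.43e-05), and 3.97-fold in KO without 54F (adjusted p = 5.33e-05). The response was not called as different between genotypes, at 0.99 on the log2 scale (interval -0.21 to 2.19, adjusted p = 0.349). Without 54F this difference was 0.55 (adjusted p = 0.603).

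Within WT, UV males had 2.31, 2.76, 6.32 and 6.31 cpm of Entpd1, and UV females 0.473, 1.46, 1.5 and 3.04 cpm. In KO the order was the other way, with 5.34, 2.56, 1.56 and 2.25 cpm in UV males and 5.63, 26.1, 6.39 and 7.18 cpm in UV females. The sex difference of the UV response was -1.52 on the log2 scale in WT (95% interval -3.22 to 0.19, edgeR adjusted p = 1) and 0.75 in KO (-0.95 to 2.44, adjusted p = 0.861), which became -0.11 without 54F (adjusted p = 1). After UV, Entpd1 was higher in KO than in WT by 1.10 with all mice (edgeR adjusted p = 0.119), and by 0.68 without 54F (adjusted p = 0.339). In females fitted alone that difference was 2.72 (adjusted p = 0.0226), and 1.94 (adjusted p = 0.0585) when 54F was also left out. In males alone it was -0.61 (adjusted p = 0.903).

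Entpd1 was also set beside macrophage markers at the ends of its range in WT UV mice. The 4 WT UV mice lowest in Entpd1 (51F, 57F, 59F and 32M) had 98.3, 124, 103 and 99.7 cpm of summed macrophage markers, and the 2 highest (57M and 71M) had 176 and 147 cpm. Over all WT UV females the sums ran to 144 cpm (median 114), the highest in 77F, which had 3.04 cpm of Entpd1. Over all WT UV males the median sum was 132 cpm. In KO UV mice the sums were 99.8 to 216 cpm in males and 157 to 1543 cpm in females. Among the defining markers, Mrc1 averaged 0.437 cpm in WT Control and 13.0 cpm in WT UV mice, and 1.04 and 70.1 cpm in KO. Mouse 54F alone had 378 cpm of Mrc1, and without it the KO UV mean was 26.2 cpm. The part of macrophage content in the rise of Entpd1 was not tested.

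**Figure D4:**
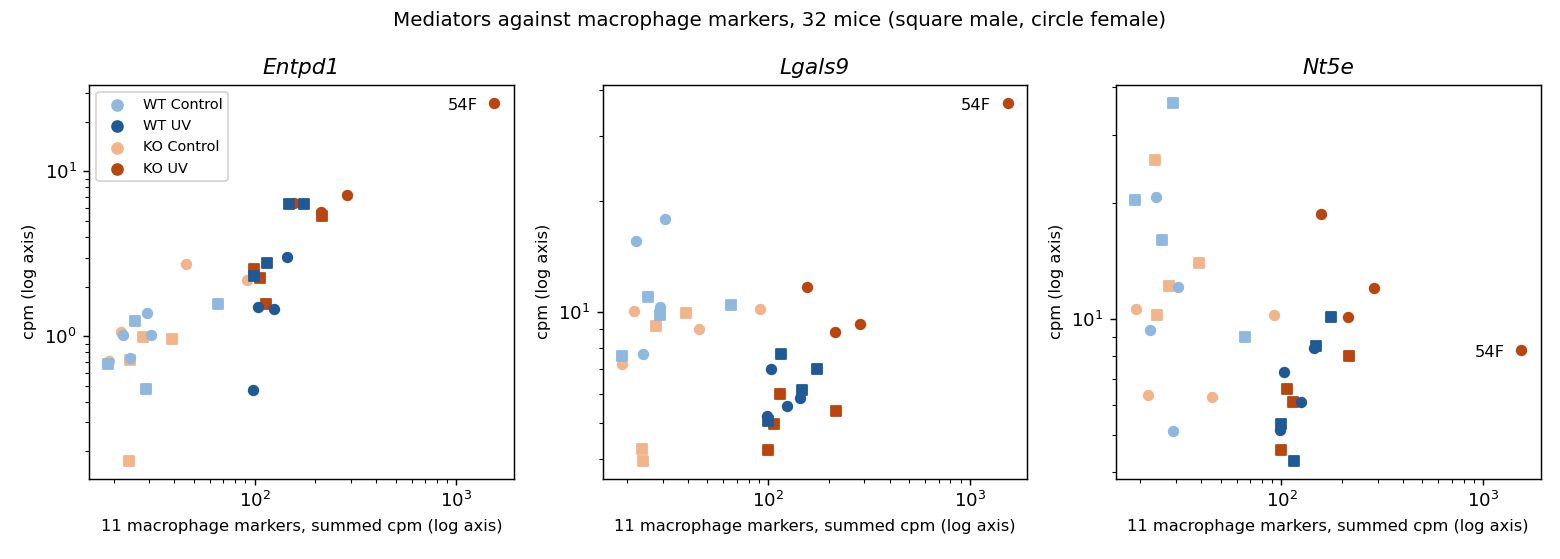
Entpd1, Lgals9 and Nt5e (cpm, log axes) against the summed cpm of 11 monocyte and macrophage markers (log axis) in 32 mice, coloured by genotype and exposure, with squares for males and circles for females. Mouse 54F lies apart at 1543 cpm of markers, with the highest Entpd1 (26.1 cpm) and Lgals9 (36.9 cpm) but an Nt5e of 8.32 cpm inside the range of the other mice.

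Nt5e, the gene for CD73, which completes adenosine formation from AMP, fell in WT. Control mice had 5.12 to 36.4 cpm (median 14.1) and UV mice 4.29 to 10.1 cpm (median 6.68), a 2.25-fold fall (95% interval 1.51 to 3.36, edgeR adjusted p = 0.000514) with overlapping ranges. In KO it went from 6.29 to 25.9 cpm (median 10.4) to 4.58 to 18.7 cpm (median 8.18), a log2 change of -0.38 (interval -0.95 to 0.20, adjusted p = 0.23). The difference between genotypes was 0.79 (interval -0.01 to 1.60, adjusted p = 0.259).

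In KO the Nt5e values ran differently in each sex. KO males had 10.2, 12.2, 25.9 and 14.0 cpm without UV and 8.04, 4.58, 6.09 and 6.57 cpm with UV. KO females had 10.3, 6.29, 6.37 and 10.6 cpm without UV and 10.1, 8.32, 18.7 and 12 cpm with UV. The males fell (-1.28 on the log2 scale in males alone, edgeR adjusted p = 0.0104), and females alone gave 0.53 (adjusted p = 0.22). The sex difference of the response was 1.85 (95% interval 0.70 to 3.0, unadjusted p = 0.00256), and it did not pass over all genes (edgeR adjusted p = 0.298). No gene passed that comparison by edgeR in KO (0%), where 1482 genes (9.53%) had an unadjusted p under 0.05 and DESeq2 called 35, or in WT (0%), where 419 (2.7%) did and DESeq2 called 3.

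Of the genes that remove adenosine, Ada rose and Adk fell, and the receptor gene Adora2b fell. Ada, the adenosine deaminase gene, went from 3.88 ± 1.23 to 25.0 ± 4.47 cpm in WT (mean ± SD, n = 8, 6.49-fold, edgeR adjusted p = 4.83e-12) and from 3.52 ± 1.40 to 25.0 ± 5.84 cpm in KO (7.15-fold, adjusted p = 2.29e-12). Adora2b, a low-affinity adenosine receptor gene, went from 28.5 to 13.0 cpm in WT and from 30.4 to 13.5 cpm in KO (2.19-fold and 2.24-fold lower, adjusted p = 1.78e-10 and 1.03e-10). Adora2a was below the minimum. Entpd2, a related ecto-ATPase, fell by 0.90 and 0.54, and Entpd3 rose in KO (1.40, adjusted p = 0.00118) and was at 0.11 in WT, with a difference of 1.29 (adjusted p = 0.166). The KO value of Entpd3 was 0.87 without 54F (adjusted p = 0.009) and 0.60 in males alone (adjusted p = 0.256), and that of Entpd2 in males alone was -0.49 (adjusted p = 0.0668). Of 15 tested genes of the axis, 4 rose and 6 fell in WT, and 6 rose and 6 fell in KO (5 and 6, and 6 and 6, of 14 without 54F). Adk, the adenosine kinase gene, fell by 2.08 in WT and 1.26 in KO, and this response differed between genotypes (0.82, adjusted p = 0.0254, and 0.0448 without 54F).

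No mediator was called in any comparison of genotypes with all mice. Among their direct partners, 4 of 15 tested rose and 5 fell with UV in WT, and 8 rose and 4 fell in KO (8 and 6 without 54F). For the response to UV, where 0.765% of all genes were called, the log2 differences (KO minus WT) of Hal, Tslp, Cd274 and Tnfsf11 were -0.31, 0.09, -0.11 and 1.25. Their 95% intervals were -0.78 to 0.16, -0.61 to 0.79, -0.44 to 0.21 and -0.32 to 2.82, and that of Arg1 was -0.83 to 1.30. Among the KO and WT mice without UV, where 0.206% of genes were called, the adjusted p of the mediators ran from 0.589 for Lgals9 upwards. After UV the smallest edgeR adjusted p was 0.119, for Entpd1, and without 54F it was 0.219, for Hal. The interval of Cd274 was the narrowest among the 8 tested mediators.

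Genes that tracked a mediator across the 32 mice were listed as the 2 with the highest Pearson correlation of log2 cpm among 13084 or 13085 genes. The mice fall into UV and Control sets, so these values mostly rank genes by a like response, and they carry no test. Nearest to Hal were Nrd1 (r = 0.988) and Cobl (0.987). Tslp was nearest to Serpinb2 (0.945), a serpin of activated keratinocytes, and Defb14 (0.936), a defensin. Cd274 was nearest to Erfe (0.943) and Wincr1 (0.941), and Tnfsf11 to the histidine decarboxylase gene Hdc (0.945) and Tmc7 (0.919). Entpd1 went with Plxnd1 (0.916) and the Fc receptor gene Fcgr2b (0.912), which macrophages express, and Lgals9 with Tram2 (0.859) and Nfam1 (0.858). The correlations were lower for Nt5e, with Emb (0.765) and Caprin2 (0.759), and for Arg1, with Osbpl8 (0.625) and Stt3b (0.613).

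Further suppressive mediators and candidate regulators outside the 9 genes were described from lists. Of 13 tested suppressive mediators, 7 rose and 3 fell in WT, and 8 rose and 3 fell in KO, with median log2 changes of 1.05 and 1.73. These counts and medians include Ptger2 and Cd200r1, which passed the minimum through UV mice alone. Ptgs2, the inducible prostaglandin synthase, rose by 4.97 and 4.64, and Ptafr, the receptor of platelet-activating factor, by 3.34 and 3.40. Ptges, which completes prostaglandin E2 synthesis, rose by 1.66 and 1.29, while Cd47, a ligand that restrains phagocytes, fell by 1.77 and 1.5. Of 12 tested upstream regulators, 4 rose and 6 fell in WT and 5 rose and 4 fell in KO. Hif1a, a hypoxia-responsive regulator, rose by 1.37 and 1.09, and Cyp27b1, which activates vitamin D, by 1.69 and 1.61. The vitamin D receptor gene Vdr fell by 0.55 and 0.78, and Ahr, a receptor for tryptophan photoproducts, by 0.70 and 0.72.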

How the data were processed

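Poly(A) RNA of the epidermis of 32 mice was sequenced with a stranded kit (RNA quality numbers 6.4 to 8.4). Per the labels' processing notes, the authors trimmed reads with cutadapt 1.8, aligned them with STAR 2.5.3a to GRCm38 and counted them with HTSeq 0.9.1. The deposited values are whole-number read counts per gene, neither normalized nor filtered. Reads on no feature (6.80 to 9.75% of a library) and ambiguous reads (1.28 to 1.56%) were left out of library sizes. GENCODE M21 gave symbols for 55141 of 55401 identifiers and exon lengths.

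The 15546 genes that reached 1 cpm in any of the 32 mice were fitted with TMM factors (which also scale the cpm values of genes, but not this minimum), 1 mean per group and edgeR 4.0.16 (R 4.3.3), with 24 residual degrees of freedom. UV effects were averaged over sexes, and the code was tested on simulated data. Il10, below the minimum, was compared as cpm over 12870 arrangements of 8 and 8 mice, two-sided. Alternatives were RLE factors, DESeq2 1.42.0, limma-trend (limma 3.58.1), filterByExpr, no minimum, only the mice of a comparison, each sex alone and the removal of each mouse. Females alone without 54F, and the list counts without 54F, were added after the data were seen.

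The mediators and lists were chosen with earlier results of these data known. Named genes were all mediators, their direct partners, the 2 genes most like each mediator by correlation and, of each list, up to 3 each way with the smallest adjusted p for UV in WT. Cell markers and Cd276 were named after their values were seen.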

Additional observations from a re-analysis of the deposited data

Results flagged for a closer look

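Of 72 groups of 4 mice (9 mediators in 8 groups), 4 held a mouse whose gap to its neighbour exceeded Dixon's 95% critical value, where chance flags about 1 in 20 groups. Tnfsf11 was at 1.13 cpm in WT UV female 59F, against 0.578 to 0.621 cpm in the other 3. Il10 was at 0.0408 cpm in KO Control female 60F, a single read where the other 3 had none. Entpd1 was at 26.1 cpm in KO UV female 54F, against 5.63 to 7.18 cpm. Lgals9 was at 36.9 cpm in that same mouse, against 8.86 to 11.7 cpm. Mouse 54F also had 1007 cpm of the collagen gene Col3a1, against at most 5.25 cpm in the other mice of its group, and the part of fibroblast or macrophage content in its Entpd1 and Lgals9 values was not tested.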

How the results depend on the processing

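The UV comparisons kept their number of called genes within 1.5 times under all alternatives, from 10803 to 11092 in WT and 10757 to 11076 in KO on leaving out 1 mouse, and sex over all states gave 2189 to 3482 of 2965. Comparisons of genotypes did not. For the UV response, 119 became 841 with DESeq2, 55 without a minimum, 6 in males, 12 in females and 2 in females without 54F (56 without WT Control 69M to 346 without KO UV 59M, and over 1.5 times away for 12 of 32 mice left out). Without UV, 32 became 78 with DESeq2, 15 with only its mice, 5 in males, 2 in females and 2 in females without 54F (20 without KO Control 69F to 45 without WT Control 63F, and over 1.5 times away for 4 mice). After UV, 514 became 1116 with DESeq2, 260 with limma-trend, 263 without a minimum, 40 with only its mice, 7 in males, 1383 in females and 373 in females without 54F (133 without WT UV 51F to 983 without KO UV 59M, 209 without 54F, and over 1.5 times away for 9 mice). For sex by UV, 0 became 3 in WT and 35 in KO with DESeq2, and 1 in KO with only its mice (0 to 2 on leaving out 1 mouse). The cause was not tested. Il10 kept its direction and exact p under 0.05 throughout (0.158 to 0.207 cpm in WT and 0.211 to 0.323 cpm in KO on leaving out 1 mouse).

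Values that changed sign were not called with all mice or under the alternative. In females alone, Arg1 in WT was 0.52, Il7r -0.17 and Il10ra -0.0051, Nt5e and Arg2 in KO 0.53 and 0.055, and the genotype differences of Cd274 and Arg1 0.014 and -0.24. In males alone, Arg1 and Lgals9 in KO were -0.18 and -0.39, the genotype difference of Entpd1 -0.15, and after UV those of Entpd1 and Lgals9 -0.61 and -0.34. On leaving out 1 mouse, Arg1 ran from -0.34 to 0.069 in WT and -0.21 to 0.37 in KO, Lgals9 in KO from -0.13 to 0.35, Il10ra in WT from -0.014 to 0.13, Entpd3 in WT from -0.12 to 0.47, and the genotype differences of Tslp from -0.059 to 0.23 and Arg1 from -0.037 to 0.56. Calls lost in 1 sex were Nt5e, Entpd1 and Tnfrsf11b in WT females (-0.77, 0.67 and -1.59), Lgals9 in WT males (-0.56), and Il10ra, Entpd2, Entpd3 and Havcr2 in KO males (0.17, -0.49, 0.60 and 0.51). Calls gained in 1 sex were Nt5e, Il10rb and Arg2 in KO males (-1.28, -0.36 and -0.47), and the genotype differences after UV of Entpd1 and Lgals9 in females (2.72 and 1.41, not called without 54F). The sex difference of Hal over all states was gained with DESeq2 and for 9 of the 32 mice left out in turn. RLE factors changed no call. Depth limits Il10 and Tnfsf11, whose Control mice had at most 7 and 6 reads. No paired analysis was possible because the mouse numbers name animals and no number links mice across groups.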
